A study of Saccharomyces cerevisiae with 4 samples.

Results

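The comparison described here is that of 30 with 28 degree among tagged deletion mutants of the yeast Saccharomyces cerevisiae that carried the wild-type CDC102 gene on a plasmid. It uses 2 of the 4 tag arrays of the study, 1 at each temperature, chosen by their titles. The gene is better known as PSF2 (YJL072C, on chromosome X). Per the labels, chromosomal CDC102 had been disrupted with natMX, a cassette that gives resistance to the drug Nat, in a pool of 5896 heterozygous diploid deletion strains. The pool then received a URA3 centromere plasmid with the wild-type gene, so both arrays share the disruption and the plasmid. After sporulation the haploids grew for 2 days at 30 degree in the first pool and for 2 days at 28 degree in the second, in each case on plates lacking uracil and on the same plates with Nat. The other arrays, with the cdc102-1 allele on the plasmid at 30 and at 28 degree, are used only for comparison. Of 5325 strains on the array, 5317 had a value at both temperatures and 5113 had a value in both of their tags at both temperatures.

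PSF2 is a subunit of GINS, an essential complex that joins Cdc45 and the Mcm2-7 ring in the helicase that unwinds DNA at replication forks. In a deletion collection each gene is replaced by a cassette flanked by an uptag and a downtag, short sequences that name the strain, so that the abundance of every strain can be read from pooled genomic DNA. Plates without Nat hold haploids with or without the CDC102 disruption, and plates with Nat hold those with it, which live on the plasmid copy. With wild-type CDC102 on that plasmid, the ratio between plates compares a deletion alone or with the covered disruption against the deletion always with it. Haploids deleted for an essential gene do not grow, whichever plate they are on.

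Each spot holds a log2 ratio of the tags from the plates without Nat (Cy5) and with Nat (Cy3). Which dye is the numerator is not stated. Cy5 may be taken as the likely one, since it marks the source listed first, and a higher value would then mean relatively less of the strain's tag on the Nat plates. All values below are the mean of a strain's spots after the strain median of the array was set to 0, called the level, and the difference is the level at 30 degree minus that at 28 degree. A difference of 1 is a 2-fold difference between the ratios. Each temperature has 1 array, so no difference was tested and no p-value is given. The error shown is the disagreement between both tags of a strain or, where stated, the SD over the spots of a tag. Tags and spots were read on the same arrays and share the pool, the plates and the DNA. Both errors therefore leave out the spread between cultures.

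Levels spread more widely at 30 degree. Their SD over strains was 0.77 at 30 degree, against 0.65 at 28 degree, and the lowest 5% lay below -1.73 at 30 degree, against -1.51 at 28 degree. The 30 degree array also had 396 named spots without a value, against 63 on the 28 degree array. Across 5317 strains the levels on both arrays had a Pearson correlation of 0.683 and a Spearman correlation of 0.692; the strains share the arrays, the pool and the tag sequences, so these are descriptions. Within an array the tags of a strain were less alike than the arrays were, with a Pearson correlation across strains of 0.300 at 30 degree (5127 strains) and 0.313 at 28 degree (5298 strains).

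**Figure D1:**
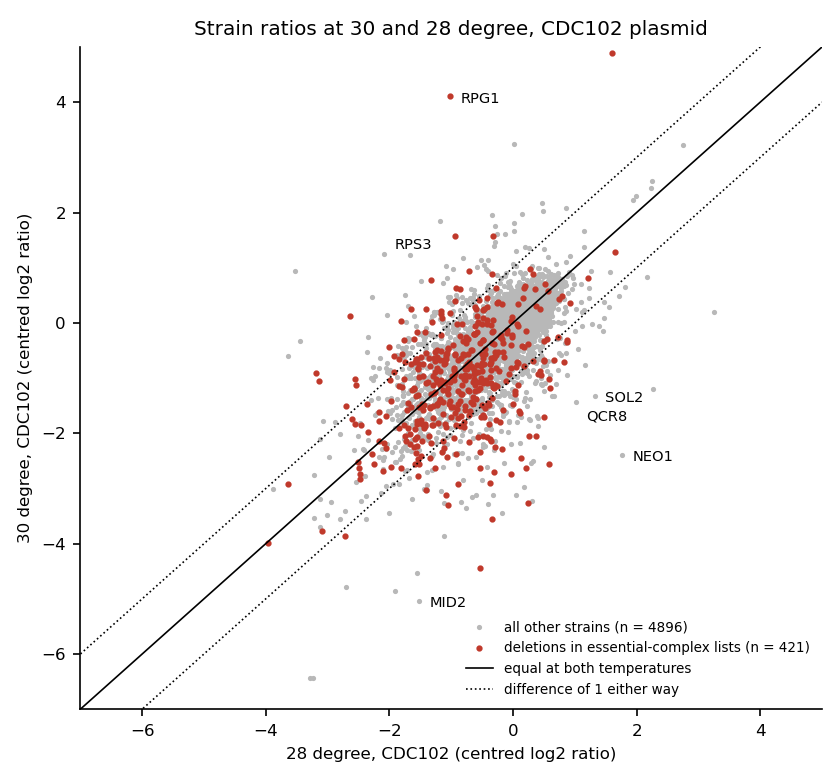
Centred log2 ratio of each strain at 30 degree (vertical axis) against 28 degree (horizontal axis) with the CDC102 plasmid; red points are the 421 strains on lists of mostly essential genes, grey points the other strains, and dotted lines mark a difference of 1 either way. Red points lie mostly at negative levels at both temperatures, with medians of -0.98 at 30 degree and -0.81 at 28 degree.

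For most strains the difference between temperatures was small. It had a median of -0.01 and an SD of 0.58, and 4197 strains (78.9%) lay within 0.5 of 0. At 30 degree 161 strains (3.03%) were higher by at least 1 and 264 (4.97%) lower by at least 1, together 7.99% of those measured. The split between directions depended on the scale of the arrays: with quantile normalization 200 were higher and 212 lower, and with both arrays scaled to one SD 193 were higher and 211 lower. In 204 strains a tag lacked a value on at least 1 of these arrays, so they compare unlike tags or rest on 1 tag. They supplied 32 of the 161 and 34 of the 264.

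Few of these differences were shared by both tags. The first-tag and second-tag differences had the same sign in 56.9% of 5113 strains, with a Pearson correlation of 0.10 and a Spearman correlation of 0.16 across strains. Of 200 strains higher by at least 1 in the first tag (3.91%), 26 (13.0%) were also higher by at least 1 in the second, and 22 (11.0%) were lower by at least 1 in it. Of 309 strains lower by at least 1 in the first tag (6.04%), 61 (19.7%) were also lower by at least 1 in the second, and 26 (8.41%) were higher by at least 1 in it. Such counts depended on the scale of the arrays: with quantile normalization 42 strains were higher and 45 lower in both tags, and with both arrays scaled to one SD 43 were higher and 48 lower. In the second tag alone, 4.15% of strains were higher and 6.53% lower by at least 1.

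**Figure D2:**
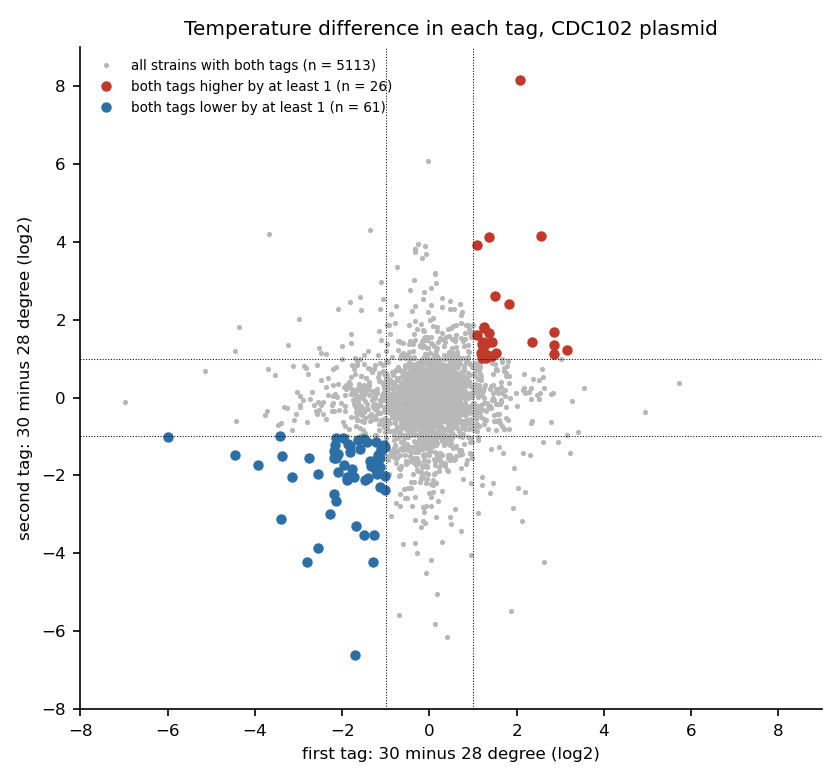
Difference between 30 and 28 degree (log2) in the second tag (vertical axis) against the first tag (horizontal axis) for 5113 strains with the CDC102 plasmid; red points are the 26 strains higher by at least 1 in both tags and blue points the 61 lower by at least 1 in both. Most strains past 1 in one tag lie near 0 in the other.

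The 26 strains higher in both tags (0.509% of 5113) had a median level of 0.47 at 30 degree, against -1.16 at 28 degree. At 28 degree 18 of them stood below -1, while 18 of the 26 lay within 1 of 0 at 30 degree and 7 stood above 1. The 61 strains lower in both tags (1.19%) had a median level of -2.01 at 30 degree, against -0.12 at 28 degree; 51 of them stood below -1 at 30 degree and 51 lay within 1 of 0 at 28 degree. The lower set therefore consists mainly of strains that were near the array median at 28 degree and well below it at 30 degree. For the higher set these counts, made at each temperature on its own, do not show how many strains met both. On the lists of mostly essential genes were 4 of the 26 and 16 of the 61. A further 18 and 36 were on no list and were not sorted by whether their gene is essential. Haploids deleted for an essential gene do not grow, so what the ratio of such a strain measures was not tested.

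Highest of all was the strain deleted for RPG1 (YBR079C, chromosome II), which encodes a subunit of the translation initiation factor eIF3. Its tags stood at 2.44 and 5.77 at 30 degree, against 0.35 and -2.38 at 28 degree, and the mean difference was 5.12. The tags agreed in direction, but their differences of 2.08 and 8.15 lay far apart. RPS3 (YNL178W, chromosome XIV), a protein of the small ribosomal subunit, had tags at 0.84 and 1.67 at 30 degree, against -1.71 and -2.47 at 28 degree, a mean difference of 3.35. All its 30 degree readings were above all its 28 degree readings. Strains named as past 1 in both tags were chosen by these same readings, so a gap between temperatures only describes them. SLY1 (YDR189W), which helps vesicles fuse between endoplasmic reticulum and Golgi, stood at 0.11 and 0.84 at 30 degree, against -1.26 and -3.30 at 28 degree, a mean difference of 2.75.

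RRP7 (YCL031C), needed to make the small subunit, stood at 0.93 and 2.21 at 30 degree, against -0.16 and -1.71 at 28 degree. RSA4 (YCR072C), an assembly factor of the large subunit, stood at -0.14 and 0.42 at 30 degree, against -3.30 and -0.79 at 28 degree. Mean differences were 2.51 for RRP7 and 2.19 for RSA4, with no overlap between temperatures in either. Of ribosomal proteins with a paralogue, RPL31A differed by 1.89 and RPL7A by 1.51, and the lowest reading of RPL31A at 30 degree, 0.13, was barely above its highest at 28 degree, 0.09. The remaining strains of the 15 highest had mean differences between 1.43 and 2.26.

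These were AAD14, a putative aryl-alcohol dehydrogenase (2.26), GFA1, which starts the synthesis of the chitin precursor (2.11), MCD4, of GPI anchor synthesis (2.11), IML2 (2.05), HCM1, a forkhead transcription factor active around S phase (1.98), ELO1, a fatty acid elongase (1.54), APE3, a vacuolar aminopeptidase (1.52), and URA6, uridylate kinase (1.43). ELO1 rests on unlike spots. Its 2 first-tag spots at 30 degree stood at 3.11 and 0.23 and its 2 second-tag spots at 4.98 and -0.19, so 1 spot of each tag carried the difference.

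Lowest was the strain deleted for NEO1 (YIL048W, chromosome IX), a phospholipid flippase of the Golgi and endosomes. Its tags stood at -1.80 and -2.98 at 30 degree, against -0.09 and 3.63 at 28 degree, a mean difference of -4.16. Much of that came from the second tag, whose level at 28 degree was itself far above the array median. MID2 (YLR332W), a sensor of cell wall stress, stood at -3.63 and -6.44 at 30 degree, against -0.82 and -2.22 at 28 degree. Its second tag at 30 degree lay at a ratio of 0.01, the lowest that the rounding of the values allows, so its level there is coarse. The mean difference was -3.52, against -2.11 with ratios of 0.05 or less left out, a value that compares unlike tags. SPC105 (YGL093W), a kinetochore protein that binds spindle checkpoint factors, stood at -5.44 and -1.08 at 30 degree, against 0.55 and -0.08 at 28 degree, a mean difference of -3.50 with tag differences of -6.00 and -1.01; with ratios of 0.05 or less left out it was -1.32, again over unlike tags.

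DED1, an RNA helicase of translation initiation, differed by -3.26, and its tags gave similar differences of -3.40 and -3.11. GLN4, glutaminyl-tRNA synthetase, stood at -4.12 and -2.98 at 30 degree, against -1.56 and 0.89 at 28 degree, a mean difference of -3.21. GCV3, the H protein of the glycine cleavage system, differed by -2.98 and was already low at 28 degree, with tags at -0.98 and -2.15 there. At 30 degree the first tags of DED1, GLN4 and GCV3 lay at ratios of 0.04, 0.05 and 0.02, so these levels are coarse. Also among the 15 lowest were CDC34, a ubiquitin-conjugating enzyme needed to enter S phase (-2.76), ESP1, the separase that opens cohesin (-2.48), and CDC25, the exchange factor of Ras (-2.82). So were QCR8, a subunit of respiratory complex III (-2.45), and COX18, which inserts part of cytochrome oxidase into the inner membrane (-2.40). OAF1, a transcription factor of the oleate response (-2.60), KAP95, importin beta (-2.52), SPB1, of large ribosomal subunit assembly (-2.39), and SOL2 (-2.65) completed the 15. With ratios of 0.05 or less left out, COX18 stood at -0.78 and SPB1 at -0.97, both under 1 in size, and KAP95 at -1.52; these values too compare unlike tags.

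**Figure D3:**
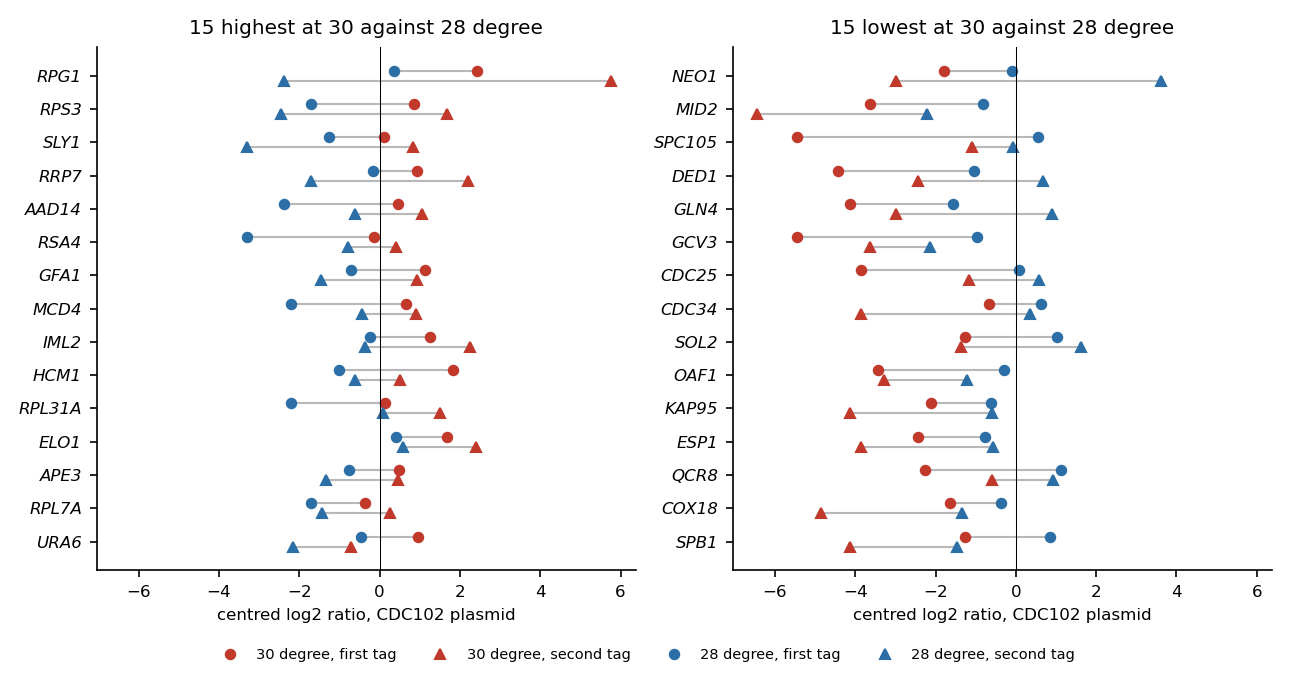
Levels (centred log2 ratio, horizontal axis) of the 15 highest and 15 lowest strains by mean difference among those past 1 in both tags, with the CDC102 plasmid; red symbols are 30 degree and blue symbols 28 degree, circles the first tag and triangles the second, and grey lines join the temperatures of a tag. The lines differ in length between the tags of a strain, most in RPG1, where they span 2.08 and 8.15.

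Most of these strains have 1 spot per tag, but 793 have 6 or more per tag, and in these the reading of a spot can be repeated. They varied less between temperatures (SD 0.39) than the 4524 strains with fewer spots (SD 0.61). By at least 1, 11 were higher (1.39%) and 14 lower (1.77%), against 3.03% and 4.97% of all strains. In both tags 1 of 792 was higher, HCM1, and 4 were lower, SOL2, ADH1, YPK1 and TPS1. Over all 5113 strains with both tags the shares were 0.509% and 1.19%. SOL2 (YCR073W-A, chromosome III), a relative of 6-phosphogluconolactonase, had a first-tag mean of -1.27 ± 0.33 at 30 degree, against 1.02 ± 0.16 at 28 degree, and a second-tag mean of -1.37 ± 0.30 at 30 degree, against 1.63 ± 0.25 at 28 degree (SD over 6 spots each). No spot of either tag at 30 degree reached the lowest at 28 degree. The spots of a tag share the array, pool, plates and DNA at each temperature, so their SD leaves out the spread between cultures. TPS1 (YBR126C, chromosome II), trehalose-6-phosphate synthase, gave first-tag means of -1.51 ± 0.11 at 30 degree, against -0.02 ± 0.10 at 28 degree, and second-tag means of -1.16 ± 0.15 at 30 degree, against -0.09 ± 0.05 at 28 degree (SD over 6 spots each). Its mean difference was -1.28. YPK1, a kinase of membrane and sphingolipid homeostasis, differed by -1.43, with first-tag means of -0.69 ± 0.21 at 30 degree and 0.55 ± 0.16 at 28 degree (SD over 6 spots). HCM1 (YCR065W) stood higher, with first-tag means of 1.83 ± 0.15 at 30 degree and -1.02 ± 0.21 at 28 degree and second-tag means of 0.50 ± 0.21 at 30 degree and -0.62 ± 0.40 at 28 degree (SD over 6 spots each). For ADH1, alcohol dehydrogenase, the spots themselves disagreed. Its first-tag spots ran between -6.44 and -0.14 at 30 degree, with 1 at the lowest ratio, against -0.88 and 0.09 at 28 degree, and its mean difference was -1.83, against -1.12 with ratios of 0.05 or less left out.

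Deletions on 15 lists of complexes whose genes are mostly essential varied more between temperatures than those on the other lists. Of their 421 measured strains, 34 (8.08%) were higher and 67 (15.9%) lower by at least 1, against 3.03% and 4.97% of all strains, and 4 were higher and 16 lower in both tags of 387. The SD of their differences was 0.99, against 0.51 for the 829 strains on the 39 other lists. Their levels were low at both temperatures, with a median of -0.98 at 30 degree, against -0.81 at 28 degree. Their tags also disagreed more: the gap between tag differences, halved, had a median of 0.55, against 0.16 in the other lists. The median difference was -0.19 and 14 of the 15 lists had a median below 0, but with quantile normalization the median difference was -0.03 with 10 lists below 0, and with arrays scaled to one SD it was -0.02, also with 10. The share past 1 either way, 24.0%, was 24.7% with quantile normalization and 23.8% with scaled arrays.

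The spread followed the level more widely than these lists. With strains sorted by their level on the cdc102-1 array at 28 degree, which plays no part in the difference, the SD of the difference was 0.99 in the 131 strains at -2 or below and 0.45 in the 1999 strains between 0 and 0.5. In the 133 strains above 1 it was 0.63. How far the low level of the essential-gene lists accounts for their spread was not tested.

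**Figure D4:**
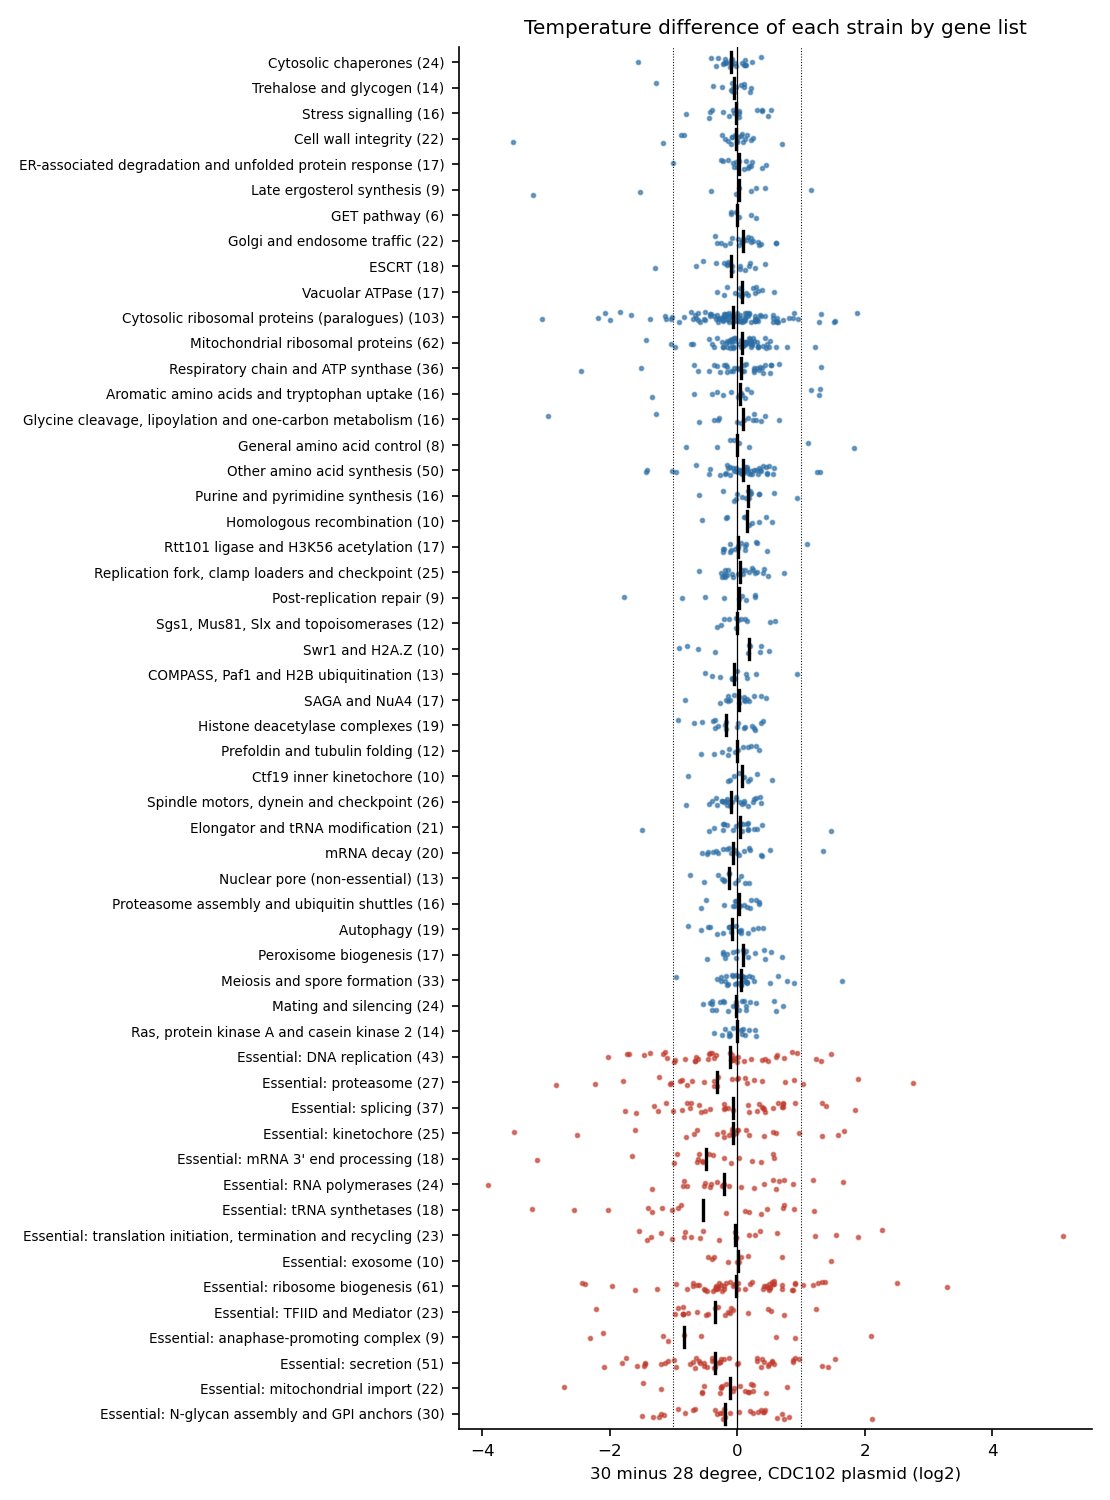
Difference between 30 and 28 degree (log2, horizontal axis) of each strain with the CDC102 plasmid by gene list, with the number of strains in brackets; points are strains, black bars list medians, red the 15 lists of mostly essential genes, blue the 39 other lists, and dotted lines a difference of 1 either way. Blue list medians lie between -0.17 and 0.18, and red lists scatter to both sides of 0, with an SD of 0.99 over their strains against 0.51.

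Over all 421 strains on the essential-gene lists 8.08% were higher and 15.9% lower, the shares against which counts of single lists are to be read. Among essential replication genes, which work with PSF2 at the fork, 3 of 43 strains were higher (6.98%) and 8 lower (18.6%) by at least 1. Their median difference was -0.11. Those lower in both tags were CDC6, the loader of the Mcm2-7 ring (-1.73), PRI1, a primase subunit (-1.69), POL1, the catalytic subunit of DNA polymerase alpha (-1.46), and DNA2, a nuclease and helicase of Okazaki fragments (-1.37), the last pair named after its values were seen. For CDC6 the tags stood at -2.35 and -1.86 at 30 degree, against -0.94 and 0.21 at 28 degree. ORC1, of the origin recognition complex, differed by -2.03, almost all of it in the second tag (-3.73 against -0.33 in the first), and by -0.70 with ratios of 0.05 or less left out. PSF2 itself stood at 0.31 at 30 degree and 0.37 at 28 degree, a difference of -0.06.

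Kinetochore genes gave 3 higher and 3 lower strains of 25, with DUO1 of the DASH ring (1.32, named after its values were seen) higher and SPC105 and IPL1, the aurora kinase (-1.61), lower in both tags. Of 18 tRNA synthetases 7 were lower and 1 higher, with GLN4 and WRS1 (-1.34) lower in both tags and a list median of -0.53. Translation initiation, termination and recycling genes gave 5 in each direction of 23, RPG1 among them. In ribosome biogenesis 7 of 61 were higher and 5 lower. RPF2, which brings 5S RNA to the large subunit, was lower in both tags, at -3.27 and -1.23 at 30 degree, against -1.38 and 0.81 at 28 degree. The anaphase-promoting complex, which marks cyclins and securin for destruction, had the lowest list median of all, -0.83 over 9 strains. None of its strains passed 1 in both tags, and the median of its halved tag gaps was 0.86.

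Secretion genes gave 3 higher (5.88%) and 10 lower (19.6%) strains of 51, near the 8.08% and 15.9% over all essential-gene lists. The lower strains included EXO70 of the exocyst (-2.09) and SEC61, the translocation channel (-1.57), neither past 1 in both tags. USO1, named after its values were seen, was the 1 strain of the list lower in both tags. It stood at -2.05 and -1.63 at 30 degree, against -0.45 and -0.32 at 28 degree. The proteasome gave 3 higher (11.1%) and 6 lower (22.2%) of 27, with RPT6, an ATPase of its base, lower in both tags (-1.79). Genes of mRNA 3' end processing gave 2 lower and 0 higher of 18, RNA14 (-3.13) and FIP1 (-1.65), and each rested on its second tag; RNA14 stood at -0.83 with ratios of 0.05 or less left out. TAF6, a subunit of TFIID, differed by -2.21, with -3.42 in the first tag and the second tag just at the threshold. RNA polymerase subunits gave 2 higher and 2 lower of 24, with a median of -0.21. RPB10 (1.65) and RPB11 (1.19) stood higher and RPB7 (-1.34) lower, with the second tag of each under 1 in size, and the other lower strain was RPC31 (-3.91), which had no second-tag value at 30 degree and was named after its value was seen.

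The 39 other lists held few strains past 1: 19 of 829 higher (2.29%) and 31 lower (3.74%), close to the shares of all strains. In 21 of these lists no strain passed 1, and their medians lay between -0.17 and 0.18. The widest of them was late ergosterol synthesis, with 1 higher and 2 lower of 9 and an SD of 1.30. NCP1, which passes electrons to the enzymes of that path, was higher (1.15), and ERG5, a sterol desaturase, lower (-1.53), neither in both tags. ECM22, a regulator of the path (-3.20, named after its value was seen), had no second-tag value at 30 degree, and its first tag alone differed by -0.97. Heat and stress genes belonged to this group. Of 24 cytosolic chaperone strains 1 passed 1, FES1, an exchange factor of Hsp70, at -1.56 with tag differences of -0.52 and -2.59. Of 14 trehalose and glycogen genes 1 passed 1, TPS1, and of 16 stress signalling genes 0 passed, the largest difference being that of SHO1, an osmosensor (-0.81). The cell wall integrity list had 2 of 22 lower, and of these MID2 was lower in both tags. Among strains of that list whose tags agreed in sign, FKS1, a glucan synthase (-0.88), and SMI1, a regulator of cell wall synthesis (-0.84), followed MID2. The tags of FKS1 differed by -0.15 and -2.81.

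Paralogous genes of cytosolic ribosomal proteins gave 5 of 103 higher (4.85%) and 11 lower (10.7%), against 3.03% and 4.97% of all strains. The SD of their differences was 0.77, against 0.42 in the mitochondrial ribosomal proteins. RPS19B stood at -1.58 and -1.08 at 30 degree, against 0.51 and 0.83 at 28 degree, with tag differences of -2.09 and -1.91. RPL31A, RPL7A and RPS29B were higher in both tags, and RPS19B and RPS17A lower in both, so members of one ribosome lay on both sides. RPS29B (1.29) and RPS17A (-1.83) were named after their values were seen. Mitochondrial ribosomal proteins gave 1 higher and 2 lower of 62, none in both tags. In the respiratory chain and ATP synthase QCR8 and ATP14 were lower in both tags and ATP15 higher in the mean (1.31). QCR8 stood at -2.27 and -0.58 at 30 degree, against 1.12 and 0.92 at 28 degree. ATP14, a subunit of the stator of ATP synthase, stood at -2.12 and -1.12 at 30 degree, against -0.15 and -0.08 at 28 degree.

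Amino acid genes lay on both sides as well. TRP3 was lower (-1.34) and TRP4 (1.16) and ARO2 (1.29) were higher, although all act in the path to tryptophan. Of these, none passed 1 in both tags. LEU1, of leucine synthesis, was lower in both tags (-1.42), and HIS5, of histidine synthesis, higher in the mean (1.25). YIH1, an inhibitor of the activation of Gcn2, was higher in both tags by 1.21 and 1.01. Among glycine cleavage and lipoylation genes GCV3 was joined by LIP5, lipoate synthase (-1.28).

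Lists of non-essential replication and repair genes are short, so their counts of 0 are near the 7.99% of all strains past 1 either way. The fork, clamp loader and checkpoint list had 0 of 25 past 1, with CTF18, of the alternative clamp loader, the largest at 0.74. Homologous recombination had 0 of 10 past 1 and the Sgs1, Mus81, Slx and topoisomerase list 0 of 12. In the Rtt101 ligase list 1 of 17 passed, MMS22, the adaptor of the ligase (1.09), with tag differences of 1.82 and 0.37. REV7, of the translesion polymerase zeta, differed by -1.78, but its tags by -3.32 and -0.23.

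Golgi and endosome traffic (0 of 22), the GET pathway (0 of 6), the vacuolar ATPase (0 of 17), autophagy (0 of 19) and peroxisome biogenesis (0 of 17) had no strain past 1; with 7.99% of all strains past 1, lists of this size are not set apart by such a count. ARL1, a Golgi GTPase, differed by 0.61, its tags standing at 0.60 and 0.44 at 30 degree, against -0.24 and 0.06 at 28 degree. MVB12 was the exception in the ESCRT list, which sorts membrane proteins into multivesicular bodies: its tags stood at -1.63 and -1.35 at 30 degree, against -0.20 and -0.20 at 28 degree, a mean difference of -1.29. Chromatin lists (Swr1 and H2A.Z, COMPASS and Paf1, SAGA and NuA4, histone deacetylases) had no strain past 1, with YAF9 (-0.92) and ARP6 (-0.78) of the Swr1 list among the largest.

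Genes linked to CDC102 and the haploid selection were examined on their own. The 42 measured strains whose genes lie within 50 kb of PSF2 had a median level of -0.08 at both temperatures and a median difference of 0.06. Of these 42, 3 were higher (IML2 among them) and 1 lower by at least 1, against 3.03% and 4.97% of all strains. CAN1, the arginine permease, stood at -0.20 at 30 degree, against -1.35 at 28 degree, a difference of 1.16, but its tags gave -0.45 and 2.76.

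With cdc102-1 on the plasmid, measured on the other 2 arrays, 206 of 5295 strains (3.89%) were higher and 447 (8.44%) lower at 30 degree by at least 1. In both tags 1.43% of 4953 strains were higher and 2.81% lower. The comparisons share no array. Across 5288 strains their differences had a Pearson correlation of 0.063 and a Spearman correlation of 0.073, as a description. Of 157 strains higher with CDC102 and measured with both plasmids, 19 (12.1%) were higher by at least 1 with cdc102-1 and 42 (26.8%) lower by at least 1. The 19 were 9.36% of the 203 higher with cdc102-1. Of 255 strains lower with CDC102, 68 (26.7%) were lower with cdc102-1 and 25 (9.80%) higher; the 68 were 15.3% of the 445 lower with cdc102-1.

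Strains past 1 in both tags the same way with both plasmids were few: of those with both tags measured with cdc102-1 as well, 1 of 20 higher and 5 of 46 lower. YIH1 was higher by 1.11 with CDC102 and by 1.82 with cdc102-1. RPF2 differed by -1.97 with CDC102 and -2.15 with cdc102-1, the closest pair of values. GCV3 differed by -2.98 with CDC102 and -2.34 with cdc102-1, and ATP14 by -1.51 with CDC102 and -1.25 with cdc102-1. For GCV3 the first tag with CDC102 at 30 degree lay at a ratio of 0.02, a coarse value. For YCR050C, an open reading frame on chromosome III (-1.59 with CDC102, -3.62 with cdc102-1), and PET117, of cytochrome oxidase assembly (-1.33 with CDC102, -3.01 with cdc102-1), the size was larger with cdc102-1. Of the 26 strains higher in both tags with CDC102, 3 were higher and 10 lower by at least 1 in the mean with cdc102-1. APE3 was among the 10, higher by 1.52 with CDC102 and lower with cdc102-1 by a difference of -2.40. Of 58 strains lower in both tags with CDC102 and measured with cdc102-1, 13 were lower and 6 higher there by at least 1. Among all strains 3.89% were higher and 8.44% lower with cdc102-1.

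**Figure D5:**
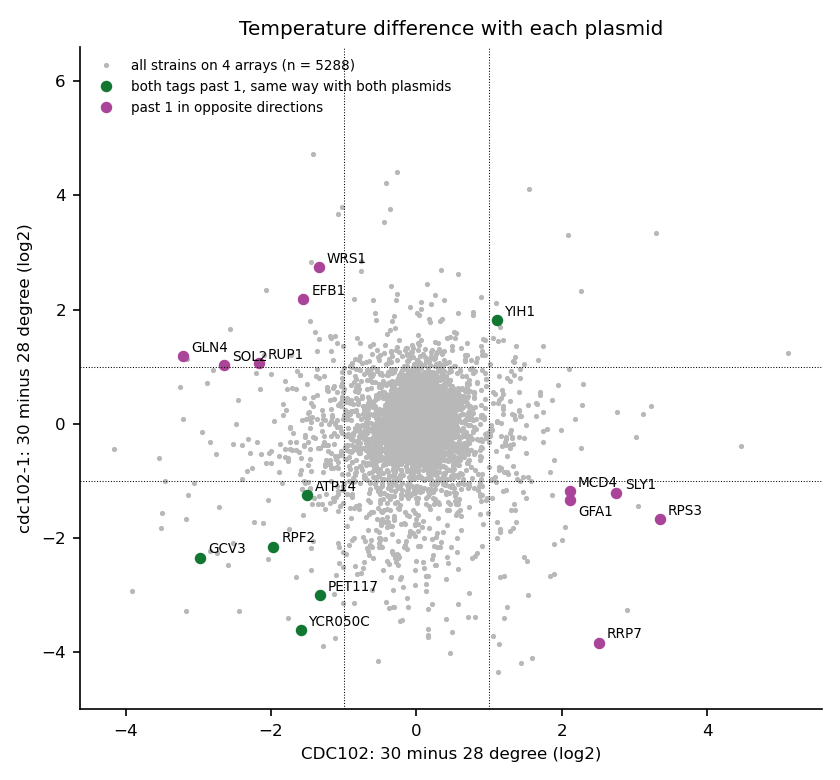
Difference between 30 and 28 degree (log2) with cdc102-1 (vertical axis) against CDC102 (horizontal axis) for 5288 strains; green points are the 6 strains past 1 in both tags the same way with both plasmids, purple points are 10 named strains past 1 in opposite directions, and dotted lines mark 1 either way. The cloud has only a weak positive correlation (Pearson 0.063), and purple points such as RRP7 (2.51 with CDC102, -3.84 with cdc102-1) lie in opposite corners.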

How the data were processed

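Genomic DNA tags from pooled haploids were hybridised to 2-colour tag arrays, and the authors' deposited values are log2 ratios per spot. Per the labels, images came from a GenePix 4000B scanner and were analysed with GenePix 5.1, without a dye swap. The labels' molecule field says RNA. Groups follow the titles; a later sentence describing either wild-type sample calls its pool cdc102-1. All deposited ratios were multiples of 0.01 within 0.1%. The sources used here do not give the numerator, background correction or dye normalization; without spot intensities, signal over background is unknown.

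Of 22575 spots, 18794 had 1 gene in the platform annotation, 0 several and 3781 none; 5321 of 5325 gene identifiers matched the R64 gene table. The stand-in ratio of 1000000 (4 spots at 30 degree, 3 at 28 degree) was left out. A strain's spots were averaged and the median over strains was subtracted from each array (-0.20 at 30 degree and -0.18 at 28 degree were removed). Tags are spots 10971 numbers apart; which block holds uptags is not told. Python 3.11.15, pandas 2.3.3 and numpy 2.4.6 were used, and the steps were tested on simulated data.

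Members, 54 gene lists (1250 of 1295 genes measured) and rules were chosen with earlier results of these data known. The strains named were the 15 highest and 15 lowest past 1 in both tags, those also past 1 in both tags with cdc102-1, up to 5 in each direction past 1 the opposite way with cdc102-1, up to 3 in each direction with 6 or more spots per tag, up to 3 per list whose tags agreed in sign, PSF2 and CAN1. Alternatives were other centring, quantile normalization, scaling, medians over spots, each tag alone, tag agreement, low ratios left out, other thresholds and, added after seeing the data, only strains with both tags on both arrays. No tag or protein sequence is printed.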

Additional observations from a re-analysis of the deposited data

Results flagged for a closer look

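The strains below differed between 30 and 28 degree in opposite directions with the 2 plasmids: both tags passed 1 with CDC102, and the mean passed 1 the other way with cdc102-1. They are the strains of largest difference with CDC102, up to 5 in each direction, of 10 higher and 6 lower that qualified. The difference was not tested, since each plasmid has 1 array per temperature.

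Higher with CDC102 and lower with cdc102-1 were RPS3 (3.35 with CDC102, -1.67 with cdc102-1), SLY1 (2.75 with CDC102, -1.21 with cdc102-1), RRP7 (2.51 with CDC102, -3.84 with cdc102-1), GFA1 (2.11 with CDC102, -1.33 with cdc102-1) and MCD4 (2.11 with CDC102, -1.18 with cdc102-1). For MCD4 the tags with cdc102-1 gave -0.01 and -2.36, and for SLY1 -1.77 and -0.65. Lower with CDC102 and higher with cdc102-1 were GLN4 (-3.21 with CDC102, 1.18 with cdc102-1), SOL2 (-2.65 with CDC102, 1.03 with cdc102-1), RUP1 (-2.16 with CDC102, 1.07 with cdc102-1), EFB1, an elongation factor subunit (-1.56 with CDC102, 2.19 with cdc102-1), and WRS1, tryptophanyl-tRNA synthetase (-1.34 with CDC102, 2.74 with cdc102-1). In WRS1 both tags passed 1 with cdc102-1 too, at 2.76 and 2.72. In SOL2 (0.59 and 1.47), RUP1 (1.42 and 0.71) and EFB1 (0.52 and 3.86) 1 cdc102-1 tag stayed under 1. Not among the strains listed, APE3 (-2.33 and -2.48) and IML2 (-2.16 and -1.45) were lower by at least 1 in both cdc102-1 tags. For RPS3, RRP7, GFA1 and GLN4 the cdc102-1 value compares unlike tags, because 1 tag had no value at 1 temperature. The tag measured at both gave -1.61 for RPS3, -3.36 for RRP7, -1.01 for GFA1 and 0.35 for GLN4, so GLN4 does not pass 1 there.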

How the results depend on the processing

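The counts at a difference of 1 were 161 strains higher and 264 lower, and 26 higher and 61 lower in both tags. With quantile normalization 42 strains were higher and 45 lower in both tags, and with arrays scaled to one SD 43 and 48. Keeping strains whose tags lay within 1 of each other on both arrays left 34 higher and 51 lower, 13 and 23 of them in both tags. At a threshold of 0.5 the counts were 474, 646, 144 and 191, and at a threshold of 2 they were 23, 55, 2 and 7, in the same order. In the other alternatives run over both tags these 4 counts stayed within 1.5 times. With a single tag, where only the first pair of counts can be had, 210 were higher and 324 lower in the first tag and 216 and 341 in the second. Of the 425 strains past 1, 229 were past 1 in the first tag alone and 44 of 404 measured turned sign; 250 were past 1 in the second tag alone and 26 of 379 turned sign. The list medians moved by less than 1 SD of the list's strains in 539 of 540 recomputed values. That limit is wide, since list SDs ran from 0.17 to 1.51 while the medians lay between -0.83 and 0.18. A median could turn sign within it. Essential-gene lists with a median below 0 numbered 14 as reported, 9 with the second tag alone and 15 without centring. Of 1802 recomputed values of named strains, 167 moved by more than 0.48 without a turned sign of a difference past 1. The 0.48 is the SD of the halved tag gap over all strains. The sign turned for REV7 (0.085), DPS1, aspartyl-tRNA synthetase (0.49; -2.03 otherwise), and SEC31 (-0.36; 1.54 otherwise) when ratios of 0.05 or less were left out, which left unlike tags at the 2 temperatures (the remaining tag alone gave -0.23 for REV7, -0.34 for DPS1 and 0.15 for SEC31), and for CAN1 (-0.45) with the first tag alone. Ratios of 0.05 or less rest on at most 5 steps of the 0.01 rounding. No paired analysis was possible because each temperature has 1 array, and no array could be left out for the same reason.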

Other observations

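Strains past 1 in both tags lay close together on the right arm of chromosome III. Between YCR050C and SOL2, a stretch of 34.4 kb with 19 measured strains, HCM1, RSA4 and YIH1 were higher and SOL2 and YCR050C lower at 30 degree with CDC102, 5 of the 8 such strains on that chromosome; with cdc102-1, 4 of the 19 passed 1 in both tags. The stretch was chosen after its values were seen, and its strains lay on both sides of 0. Its end strains, YCR050C and SOL2, are themselves among the 5 counted, and the closeness was not tested. Over all strains 0.509% were higher and 1.19% lower in both tags with CDC102, and 1.43% and 2.81% with cdc102-1. Chromosome I had the widest differences: of 79 strains 7.59% were higher and 12.7% lower by at least 1, against 3.03% and 4.97% of all strains. In 54 of the 79 both tags were measured at both temperatures, and of these 0 were higher and 3 lower in both tags. The other strains compare unlike tags or rest on 1 tag. Its halved tag gap had a median of 0.41, against 0.16 over all strains.

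Spots without a value were unevenly shared. Among named spots 34 had a value only at 30 degree and 368 only at 28 degree. Of the 368, 8.97% belonged to the essential-gene lists, against 4.60% of all named spots, and their median level at 28 degree was -0.21. Spots with no gene in the annotation, 1217 with values on both arrays, differed about as much as named spots: 5.01% were higher and 5.34% lower by at least 1, against 3.97% and 6.10% of 18361 named spots.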
